A study of Gallus gallus with 16 samples.

Results

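The genes described here are 42 members of the bone morphogenetic protein (BMP) and transforming growth factor beta (TGF-beta) pathway, followed in cultured chicken granulosa cells after RNA interference of the FOXL2 gene. They were found by symbol, and each of the 42 had a row among the 18151 gene rows of the count tables. By role they are 10 BMP-type ligands, 4 TGF-beta and nodal ligands, 7 receptors, 6 SMADs, 6 intracellular inhibitors and co-repressors, 5 extracellular and membrane modulators and 4 inhibitor of DNA binding (ID) genes. Inhibins, activins, follistatin and anti-Müllerian hormone were left out. The study asked how FOXL2, a forkhead transcription factor of the ovary, acts in granulosa cells at different steps of follicle selection. It sequenced the mRNA of 16 cultures in 4 groups of 4 libraries. In the poGC-KD group, granulosa cells of pre-ovulatory follicles (the F2 to F4 follicles of the hierarchy) were transfected with FOXL2-siRNA, and in the poGC-CT group such cells received the negative control NC-siRNA. In the phGC-KD group, granulosa cells of pre-hierarchical small yellow follicles 6 to 8 mm across were transfected with FOXL2-siRNA, and in the phGC-CT group these received NC-siRNA. All cells came from White Leghorn laying hens aged 25 to 30 weeks, were precultured for 16 h in M199 medium with 5% fetal bovine serum, were transfected by lipofection, and were harvested 48 h later. Cells of 4 hens were used, and the sample labels do not tie a library to a hen, so the p-values below measure the spread between these libraries, which may be technical.

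BMPs bind pairs of type I and type II serine/threonine kinase receptors, and the activated type I receptor phosphorylates SMAD1, SMAD5 or SMAD9. TGF-beta, nodal and activin ligands act through SMAD2 and SMAD3, and both branches share SMAD4 as a partner. In the ovary these ligands come from the oocyte, the granulosa and the theca layers and tune granulosa cell growth, differentiation and steroid output, while secreted antagonists such as gremlin and noggin limit how much ligand reaches its receptor.

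The strands of the 2 siRNAs define the perturbation behind every KD and CT value below. In each duplex 19 bases of the strands pair with each other, and the capitals mark the unpaired overhang at the 3′ end.
FOXL2-siRNA, strand 1: gccucaacgagugcuucauTT
FOXL2-siRNA, strand 2: augaagcacucguugaggcTT
NC-siRNA, strand 1: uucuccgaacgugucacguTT
NC-siRNA, strand 2: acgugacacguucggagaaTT

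Library totals ran between 45697479 and 56121795 counts in poGC-KD, 36191442 and 53062138 in poGC-CT, 29979116 and 44937588 in phGC-KD, and 30476674 and 32997177 in phGC-CT. Values per library are given as CPM, counts scaled to a common library size, with library sizes normalised by the trimmed mean of M values (TMM) over all 16 libraries. FOXL2 itself had 508, 445, 472 and 393 CPM in the poGC-KD libraries, against 688, 758, 769 and 724 CPM in the poGC-CT libraries, without overlap (log2 fold change -0.68, quasi-likelihood test of edgeR, p adjusted after Benjamini and Hochberg, adjusted p = 0.000353). It had 401, 507, 399 and 363 CPM in the phGC-KD libraries, against 472, 497, 682 and 589 CPM in the phGC-CT libraries. There the groups overlapped and the fall did not pass the adjusted threshold (log2 fold change -0.43, adjusted p = 0.0878), so in phGC the targeted transcript was not shown to be lower by this test. It did pass with DESeq2 (adjusted p = 0.0232), in a fit of all 16 libraries (0.0237), without phGC-KD replicate 2 (0.0492) and without phGC-CT replicate 1 (0.0489). By qRT-PCR on the RNA samples used for sequencing, the study reported significantly lower FOXL2 in both KD groups. Its Western blots showed the protein changing in the same direction. All 12 granulosa markers sought were detected in every group. Of the 9 oocyte and germ line markers with a row, DAZL, DDX4, FIGLA, STK31 and ZP4 averaged under 1 CPM in all 4 groups, while group means were 8.04 to 11.2 CPM for PIWIL1, 7.92 to 10.9 CPM for TDRD1, 0.808 to 3.61 CPM for ZAR1 and 0.832 to 1.63 CPM for NOBOX. The erythroid markers summed to at most 1.28 CPM in any library. In bulk RNA, fewer cells of a type and less RNA per cell cannot be told apart.

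On the FPKM scale, which divides by transcript length and so allows levels of different genes to be compared, the members covered more than 4 orders of magnitude in the plot of FPKM by role. ID2 had the highest mean in all 4 groups. In poGC-KD its 164 ± 18.9 FPKM (SD, n = 4) did not differ beyond the spread from SMAD5 at 164 ± 37.2 and SMAD2 at 164 ± 17.8 FPKM. In poGC-CT the order was ID2 at 203 ± 9.01, SMAD5 at 131 ± 7.05, SMAD2 at 84.4 ± 5.67, and then BAMBI at 61.2 ± 1.96 and NOG at 60.6 ± 4.005 FPKM, of which the last 2 lay within each other's spread. In phGC-KD, ID2 at 164 ± 10.7 FPKM was followed by ID1 at 60.9 ± 13.7, LTBP1 at 58.4 ± 6.76 and BMP2 at 51.9 ± 2.16 FPKM, and the last 3 were within their spread of each other. In phGC-CT the same 4 genes led, with ID2 at 156 ± 8.45, ID1 at 46.3 ± 6.25, LTBP1 at 41.0 ± 4.48 and BMP2 at 39.5 ± 1.37 FPKM. BMP2 was the most abundant ligand in phGC, whereas in poGC-CT it stood at 12.8 ± 1.86 FPKM beside TGFB3 at 13.4 ± 0.613 FPKM. At the low end 14 members in poGC-KD, 11 in poGC-CT, 13 in phGC-KD and 11 in phGC-CT had a mean under 1 FPKM.

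**Figure D1:**
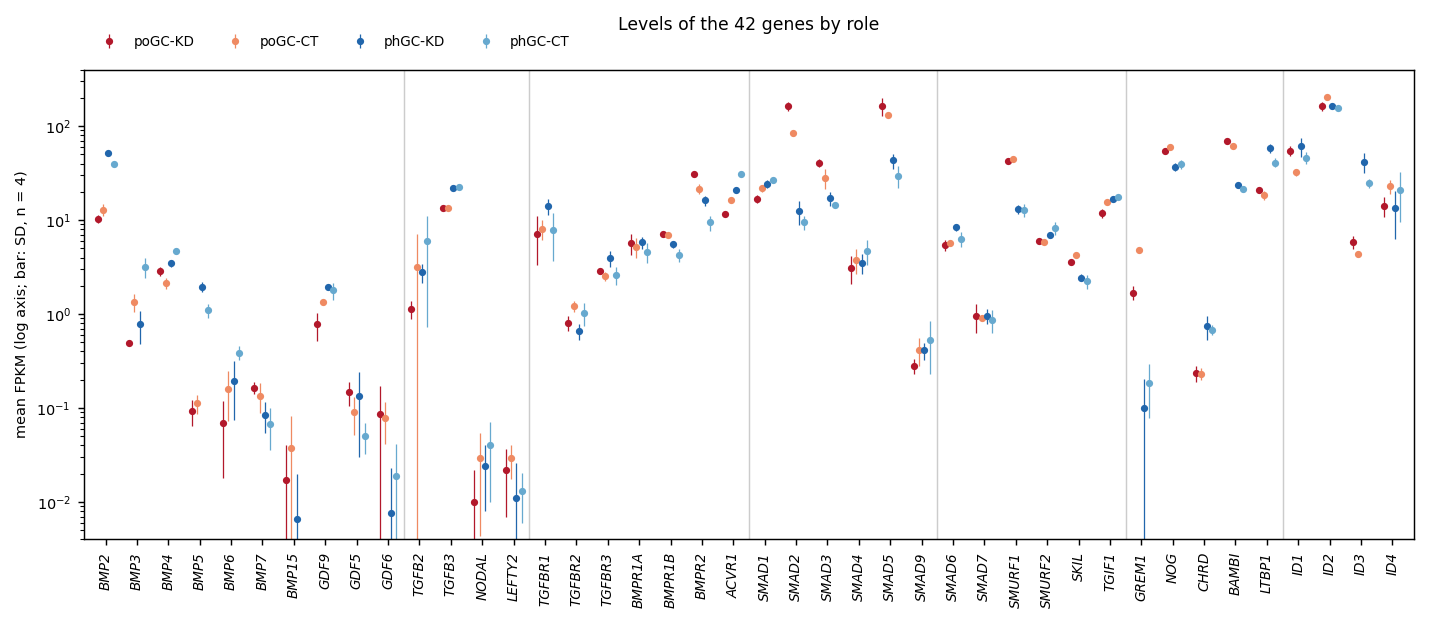
Mean FPKM of the 42 genes in each group, on a log axis, with genes ordered by role and vertical lines between roles. Points are means of 4 libraries and bars are SDs; bars that reach the lower edge go on towards 0, and BMP15 in phGC-CT, where no library had a count, has no point. ID2 stands highest, SMAD2 and SMAD5 are higher in both poGC groups than in both phGC groups, and BMP2 and ID3 are lower there.

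FOXL2 knockdown in poGC came with higher SMAD2, ID1 and BMPR2 and with lower GREM1, BMP3, GDF9, ID4, ACVR1, TGIF1, BMP2, SMAD1, ID2 and SKIL. The largest falls among these were those of BMP3, to 0.364 times the control level, and of GREM1, to 0.368 times, and the largest rise was that of SMAD2, to 1.71 times. In the comparison of poGC-KD with poGC-CT, 38 members passed the filter on low counts, 3 were higher and 10 were lower at an adjusted p under 0.05, and 25 were not called. The called share was 34.2%, against 28.8% of all 14379 genes tested (15.2% higher and 13.6% lower), so it lay near the background. For 16 tested members, and for 31.9% of all genes, every KD library lay on the same side of every CT library. Under the criteria of the study for a DEG (fold change above 1.5 and unadjusted p under 0.05), 6 members were DEGs, and 11.2% of all genes were. The median log2 fold change was -0.13 over the tested members and 0.0094 over all genes. The marker lists of cell types went both ways in this comparison, and their part in its results was not tested. The sums of endothelial markers overlapped, at 39.1 to 71.0 CPM in poGC-KD and 44.6 to 73.5 CPM in poGC-CT. Of the 6 tested, CDH5 was the 1 called (lower, means of 2.27 CPM in poGC-KD and 7.20 CPM in poGC-CT). The granulosa markers summed to 29150 to 36010 CPM in poGC-KD and 39260 to 43430 CPM in poGC-CT, most of it ZP3 (means of 30410 CPM in poGC-KD and 38630 CPM in poGC-CT), and 2 of the 12 were called higher (GATA4 and INHA) and 5 lower, FOXL2 itself among them. The theca and stroma markers summed to 760 to 836 CPM in poGC-KD and 1189 to 1299 CPM in poGC-CT, most of it COL3A1 (means of 517 CPM in poGC-KD and 958 CPM in poGC-CT), and of 9 tested 2 were higher (COL1A1 and MYH11) and 4 lower. The leukocyte markers summed to 94.6 to 105 CPM in poGC-KD and 125 to 136 CPM in poGC-CT, most of it CD74 (means of 82.3 CPM in poGC-KD and 109 CPM in poGC-CT), the 1 of 4 tested that was called, while PTPRC averaged 1.80 CPM in poGC-KD and 1.47 CPM in poGC-CT.

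In phGC, knockdown came with higher BMPR2, BMP5, ID3, SMAD5, LTBP1 and BMP2 and with lower BMP3, ACVR1 and BMP4. BMP3 again had the largest fall, to 0.243 times the control level, and BMP5 the largest rise, to 1.76 times. In the comparison of phGC-KD with phGC-CT, 37 members were tested, 6 were higher and 3 lower, and 28 were not called. The called share of 24.3% compares with 9.97% of all 13829 genes tested (5.06% higher and 4.91% lower). For 10 tested members, and for 18.3% of all genes, no KD library overlapped the CT libraries. Under the criteria of the study 9 members were DEGs, against 7.27% of all genes, but these were not the same 9 genes as those called. BMP2, BMP4, ACVR1 and LTBP1 were called and were not DEGs, while BMP6, TGFBR2, TGFBR3 and SMAD4 were DEGs and were not called. The median log2 fold change was 0.087 over the members and -0.0058 over all genes. The count of 9 called members fell to 5 without phGC-KD replicate 3, without phGC-CT replicate 2 or without phGC-CT replicate 4. With DESeq2 it was 12, where calls over all genes rose as well, from 1379 to 2282. Endothelial markers summed to 23.5 to 31.98 CPM in phGC-KD and 35.6 to 50.8 CPM in phGC-CT, with CDH5 the 1 of 4 tested that was called (lower). Leukocyte markers summed to 58.6 to 72.4 CPM in phGC-KD and 75.5 to 91.8 CPM in phGC-CT, with CD74 the 1 of 4 tested that was called (means of 48.8 CPM in phGC-KD and 68.6 CPM in phGC-CT). LCP1 and PTPRC of the same list averaged 17.96 and 0.705 CPM in phGC-KD, against 14.1 and 0.494 CPM in phGC-CT. The sums of granulosa markers (19450 to 23720 CPM in phGC-KD, 17080 to 24580 CPM in phGC-CT; 2 of 12 called higher, NR5A1 and GATA4) and of theca and stroma markers (4798 to 5879 CPM in phGC-KD, 5118 to 5856 CPM in phGC-CT; 1 of 10 called lower, TCF21) overlapped. The part of these cells in the results was not tested.

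**Figure D2:**
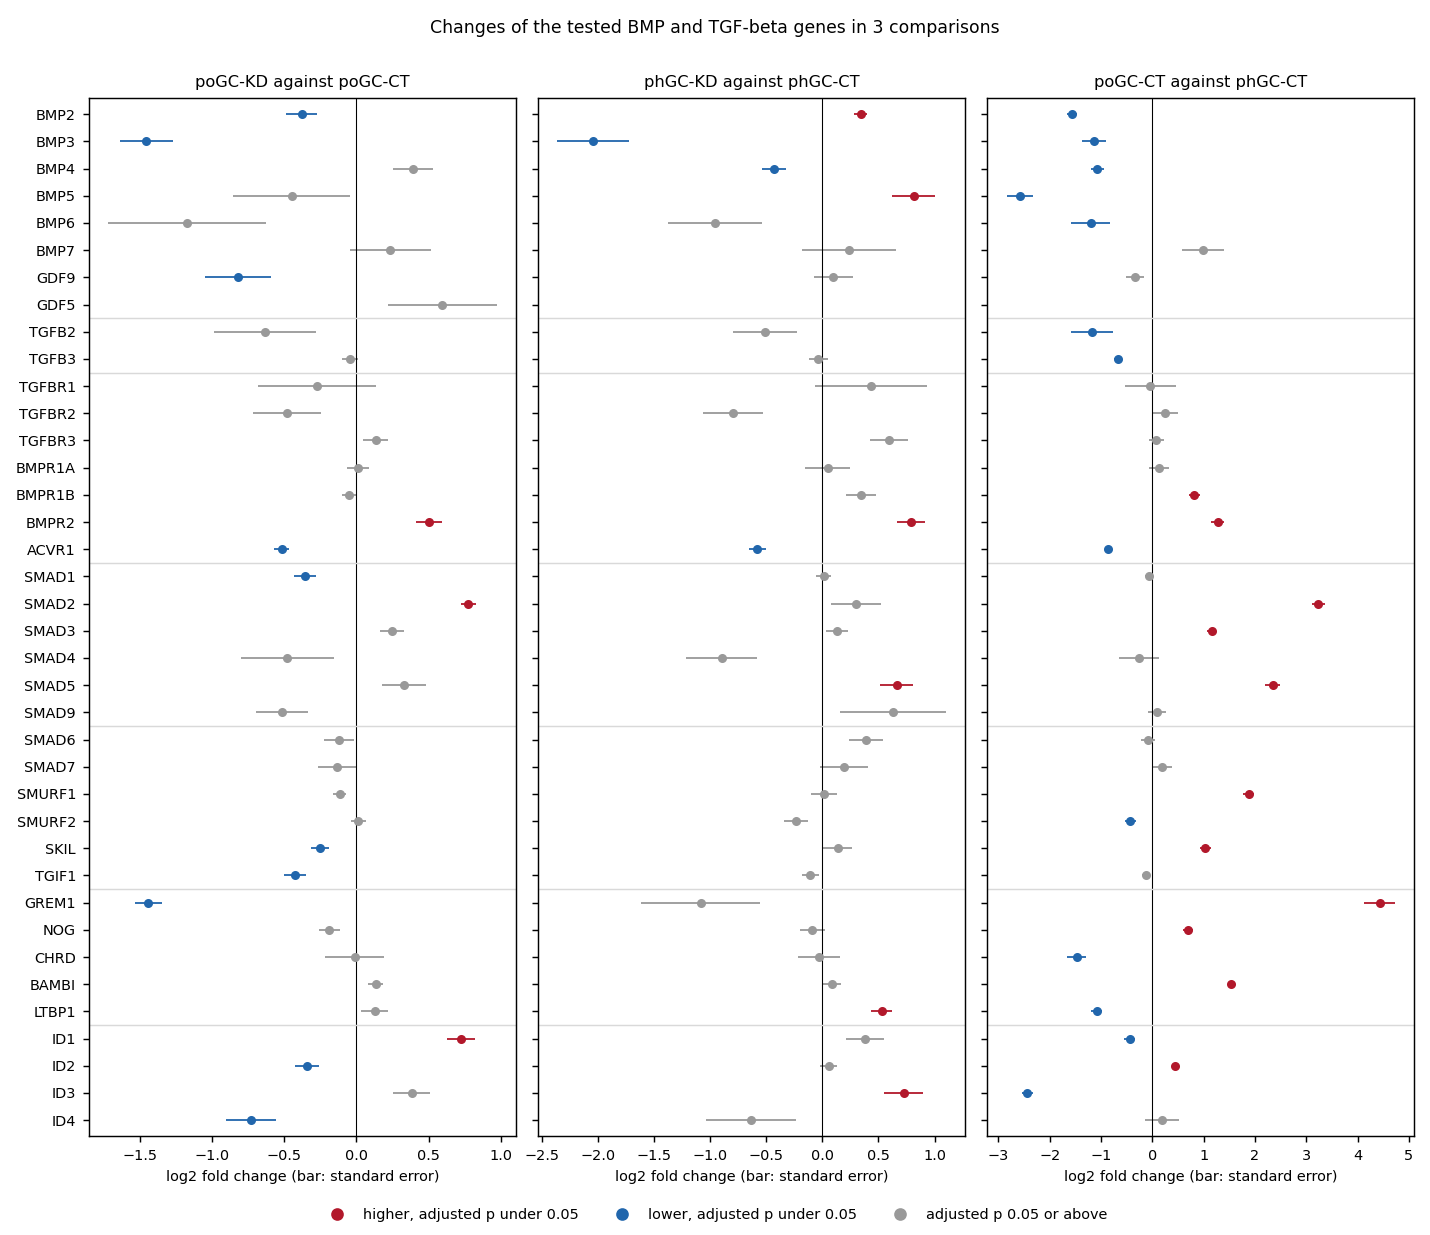
Log2 fold changes (x axis) of the tested members in the poGC comparison, the phGC comparison and the comparison of poGC-CT with phGC-CT, with genes in rows by role and bars showing the standard error; each panel has its own x range. Red points were higher and blue points lower at an adjusted p under 0.05. BMP3 lies to the left in all 3 panels, and GREM1 lies at -1.44 in the comparison of poGC-KD with poGC-CT and at 4.43 between the control groups. Wide bars belong to genes with few counts, such as BMP6 in the poGC comparison and GREM1 in the phGC comparison, or with scattered libraries, such as TGFBR1.

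Of the 37 members tested in both knockdown comparisons, BMP3 and ACVR1 were lower and BMPR2 was higher in both, and BMP2 was lower in poGC and higher in phGC. Another 9 were called in poGC alone and 5 in phGC alone, beside 28.8% of all genes called in poGC and 9.97% in phGC. The overlap over all genes was not counted, and a call in one cell type only does not show that the effects differ. The difference itself was tested as an interaction over all 16 libraries, taken as the poGC effect minus the phGC effect. It passed for 4 of 38 members, with BMP4 above 0 and BMP2, SMAD1 and ID2 below 0, and 9.25% of all 14775 genes passed (4.47% above 0 and 4.78% below). At an unadjusted p under 0.05 and a ratio of effects above 1.5 it counted 5 members, against 8.72% of all genes. With 1 library left out, the count at the adjusted threshold ranged from 2 without phGC-CT replicate 2 to 8 without phGC-CT replicate 1. With DESeq2 it was 11, where calls over all genes rose as well, from 1367 to 1908. For none of the other 34 did the interaction pass, GDF9 and TGIF1 coming nearest (interaction -0.94, adjusted p = 0.0568, and -0.34, adjusted p = 0.0506).

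**Figure D3:**
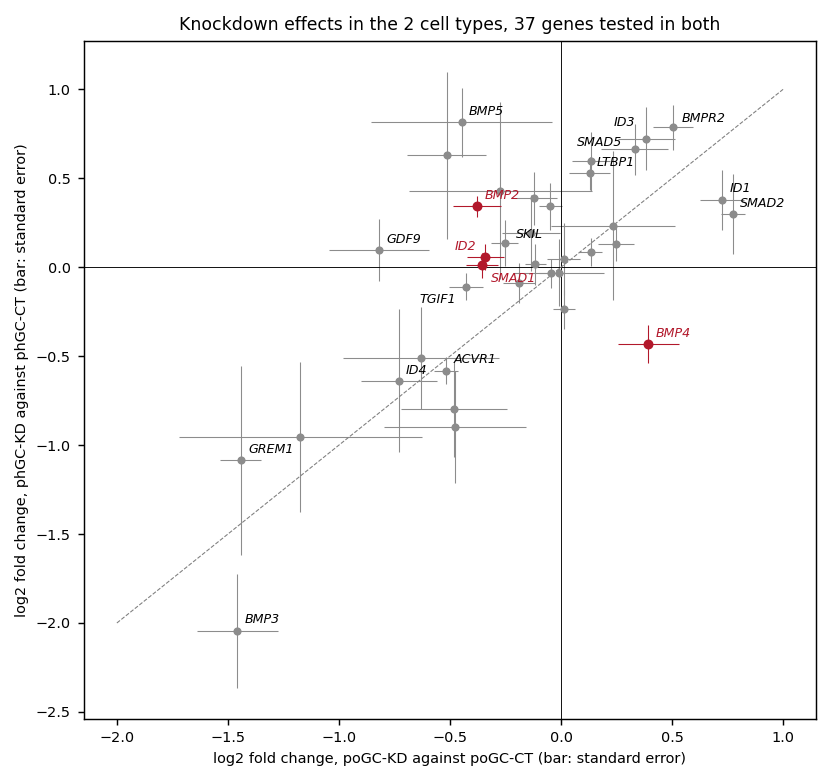
Log2 fold change in the comparison of phGC-KD with phGC-CT (y axis) against that in the comparison of poGC-KD with poGC-CT (x axis) for the 37 members tested in both, with standard errors as bars. The dashed line marks equal effects, named genes were called in at least 1 of the comparisons, and red marks the 4 genes whose effects differed in the interaction test. BMP2 lies to the upper left (-0.38 in poGC, 0.34 in phGC) and BMP4 to the lower right (0.39 and -0.43), while BMP3, ACVR1 and BMPR2 keep one sign in both cell types.

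Without knockdown, the cell types differed widely. Of the member ligands, 5 of the 7 tested BMP-type and both tested TGF-beta ligands were called lower in poGC-CT than in phGC-CT, and none higher. BMP7 (0.99, adjusted p = 0.0592) and GDF9 (-0.34, adjusted p = 0.116) were not called. The calls of BMP6 and TGFB2 were lost in some fits with 1 library left out. Of the tested ligands outside the members, BMP10 was higher and GDF11 lower. Among the SMADs, SMAD2, SMAD3 and SMAD5 were higher in poGC-CT and none was lower. In all, 37 members were tested, 11 were higher and 13 lower, and the called share of 64.9% lay near the 64.0% of all 14089 genes (32.5% higher and 31.5% lower). Libraries did not overlap for 23 tested members, against 60.3% of all genes. The median log2 difference was -0.038 over the members and 0.0036 over all genes. This comparison shares its libraries with the controls of both knockdown comparisons. Summed theca and stroma markers were 1189 to 1299 CPM in poGC-CT and 5118 to 5856 CPM in phGC-CT, with granulosa markers at 39260 to 43430 CPM in poGC-CT and 17080 to 24580 CPM in phGC-CT, endothelial markers at 44.6 to 73.5 CPM in poGC-CT and 35.6 to 50.8 CPM in phGC-CT, and leukocyte markers at 125 to 136 CPM in poGC-CT and 75.5 to 91.8 CPM in phGC-CT. Of the tested markers, 1 of 10 was higher and 6 lower for theca and stroma, 8 of 12 higher and 3 lower for granulosa, 2 of 5 higher and 1 lower for endothelium, and 3 of 4 higher and none lower for leukocytes. Oocyte and germ line markers summed to 20.3 to 22.8 CPM in poGC-CT and 24.04 to 28.7 CPM in phGC-CT. Of 4 tested, 1 was higher (PIWIL1) and 2 lower (ZAR1 and TDRD1). The part of these cells in the differences between poGC-CT and phGC-CT was not tested.

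Among the ligands, BMP2, which signals through SMAD1, SMAD5 and SMAD9, moved in opposite directions in the 2 cell types. BMP2 had 15.4, 16.7, 15.7 and 18.7 CPM in the poGC-KD libraries, against 19.6, 26.4, 19.4 and 21.8 CPM in the poGC-CT libraries. It had 84.3, 85.5, 83.2 and 77.1 CPM in the phGC-KD libraries, against 62.9, 65.4, 64.97 and 65.8 CPM in the phGC-CT libraries. The groups did not overlap in either cell type, and each phGC library was above each poGC library. BMP2 was lower in poGC-KD (log2 fold change -0.38, SE 0.11, adjusted p = 0.0299) and higher in phGC-KD (0.34, SE 0.058, adjusted p = 0.00843). These were 0.770 and 1.27 times the control level, and neither was a DEG by the criteria of the study. The interaction was -0.74 (SE 0.13, adjusted p = 0.00160) and still passed when any single library was left out. The call in poGC did not hold without poGC-KD replicate 1, 2 or 3 or without poGC-CT replicate 4 (adjusted p between 0.0609 and 0.0755), nor in limma's test of FPKM (adjusted p = 0.0879). Between the controls, BMP2 was lower in poGC-CT than in phGC-CT (log2 fold change -1.57, SE 0.10, adjusted p = 2.14e-06).

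BMP3, known in mammals as an antagonist of other BMPs, fell in both cell types. BMP3 had 1.80, 1.82, 1.65 and 1.72 CPM in the poGC-KD libraries, against 3.24, 5.57, 5.65 and 4.95 CPM in the poGC-CT libraries. It had 3.80, 1.23, 2.42 and 2.91 CPM in the phGC-KD libraries, against 11.4, 12.7, 7.26 and 11.3 CPM in the phGC-CT libraries. Every KD library was below every CT library of its cell type, and the 4 poGC-KD libraries lay within a narrow range. The log2 fold change was -1.46 in poGC-KD (SE 0.18, adjusted p = 0.000531) and -2.04 in phGC-KD (SE 0.32, adjusted p = 0.00608). Both calls held when any single library was left out, and the interaction did not pass (0.57, adjusted p = 0.443). BMP3 was also lower in poGC-CT than in phGC-CT (log2 fold change -1.14, SE 0.23, adjusted p = 0.00199).

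BMP4, a close relative of BMP2, had an interaction of the opposite sign to that of BMP2. BMP4 had 4.65, 5.40, 6.15 and 5.13 CPM in the poGC-KD libraries, against 4.95, 3.71, 3.75 and 4.003 CPM in the poGC-CT libraries. It had 6.32, 7.20, 6.34 and 5.88 CPM in the phGC-KD libraries, against 8.13, 9.13, 8.51 and 8.75 CPM in the phGC-CT libraries. In phGC the groups did not overlap, while in poGC the lowest KD library lay below the highest CT library. BMP4 fell in phGC-KD (log2 fold change -0.43, SE 0.11, adjusted p = 0.0365), and its value in poGC-KD did not pass (0.39, SE 0.14, adjusted p = 0.0632). The interaction was 0.80 (SE 0.17, adjusted p = 0.00626) and still passed when any single library was left out. The fall in phGC was not called without phGC-KD replicate 1, 3 or 4 or without phGC-CT replicate 2, 3 or 4 (adjusted p between 0.0681 and 0.103), nor with every gene of at least 1 count in the fit (adjusted p = 0.0582). BMP4 was lower in poGC-CT than in phGC-CT (log2 fold change -1.07, SE 0.12, adjusted p = 7.21e-05).

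BMP5 and BMP6 are close relatives of BMP7 among the BMP ligands. BMP5 had 6.41, 6.73, 5.17 and 4.96 CPM in the phGC-KD libraries, against 4.45, 2.98, 2.88 and 2.85 CPM in the phGC-CT libraries. The phGC groups did not overlap, although phGC-CT replicate 1 stood above the other controls. In poGC it was scarce, with 0.145 to 0.596 CPM in poGC-KD and 0.362 to 0.647 CPM in poGC-CT, and the groups overlapped. BMP5 rose in phGC-KD (log2 fold change 0.81, SE 0.19, adjusted p = 0.0318), a call lost without phGC-KD replicate 1, 2 or 3 or without phGC-CT replicate 2, 3 or 4 (adjusted p between 0.0567 and 0.0949) and in a fit of all 16 libraries (adjusted p = 0.0741). In poGC-KD it was not called (-0.45, SE 0.41, adjusted p = 0.460), and the interaction did not pass (-1.28, adjusted p = 0.0907). BMP5 was lower in poGC-CT than in phGC-CT (log2 fold change -2.58, SE 0.26, adjusted p = 3.24e-05). BMP6 had 0.788, 0.306, 0.249 and 0.644 CPM in the poGC-CT libraries, against 1.09, 1.40, 0.991 and 1.07 CPM in the phGC-CT libraries. These controls did not overlap (log2 fold change -1.21, SE 0.38, adjusted p = 0.0213), but the call was lost without poGC-CT replicate 2 or phGC-CT replicate 2 (adjusted p between 0.0564 and 0.0580). BMP6 was at or below 0.421 CPM in poGC-KD and 1.02 CPM in phGC-KD and was called in neither knockdown comparison (-1.17 in poGC, SE 0.55, adjusted p = 0.148, and -0.95 in phGC, SE 0.42, adjusted p = 0.189).

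GDF9 and BMP15 are known in mammals as ligands that the oocyte sends to the granulosa. GDF9 had 1.07, 2.23, 1.25 and 1.66 CPM in the poGC-KD libraries, against 2.67, 2.92, 2.78 and 2.70 CPM in the poGC-CT libraries. Each poGC-KD library was below each poGC-CT library. GDF9 had 3.54, 3.48, 3.84 and 4.16 CPM in the phGC-KD libraries, against 4.16, 3.59, 2.56 and 3.65 CPM in the phGC-CT libraries. The phGC groups overlapped. GDF9 fell in poGC-KD (log2 fold change -0.82, SE 0.23, adjusted p = 0.0259), and this call was lost without poGC-KD replicate 3 or without poGC-CT replicate 2, 3 or 4 (adjusted p between 0.0517 and 0.0693). In phGC-KD it was not called (0.10, SE 0.17, adjusted p = 0.758), nor between the controls (-0.34, SE 0.17, adjusted p = 0.116). The oocyte and germ line markers summed to 18.95 to 24.2 CPM in poGC-KD and 20.3 to 22.8 CPM in poGC-CT, most of it PIWIL1 and TDRD1, whose log2 fold changes were 0.014 and 0.064. The other 3 tested in poGC were FIGLA at -0.58, NOBOX at -0.43 and ZAR1 at -0.30, and none of the 5 was called (adjusted p between 0.194 and 0.934). The part of oocyte RNA in the fall of GDF9 was not tested. In phGC the oocyte and germ line markers summed to 22.04 to 25.1 CPM in phGC-KD and 24.04 to 28.7 CPM in phGC-CT. BMP15 was too rare to test, with 0, 3, 0 and 6 counts in the poGC-KD libraries, against 9, 4, 0 and 3 counts in the poGC-CT libraries. In phGC it had 0, 0, 3 and 0 counts in the phGC-KD libraries, against 0 counts in each phGC-CT library, where a count of 0 allows up to 0.0984 CPM.

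Of the other ligands, BMP7 was tested in 3 pairwise comparisons and called in none, with library values between 0.160 and 1.05 CPM. Its value between the controls, 0.99 on the log2 scale, came nearest (SE 0.41, adjusted p = 0.0592). Of the pairwise comparisons, GDF5 passed the filter in that of poGC-KD with poGC-CT only, at 0.194 to 0.364 CPM in poGC-KD and 0.0958 to 0.262 CPM in poGC-CT, and was not called (0.59, SE 0.38, adjusted p = 0.284). GDF6, NODAL and LEFTY2 reached at most 0.413 CPM in any library and were tested in none of the comparisons. GDF6 had 4, 7, 8 and 13 counts in the poGC-CT libraries, against 0, 3, 0 and 3 in the phGC-CT libraries, without overlap in CPM. TGFB2 and TGFB3, ligands of the SMAD2 and SMAD3 branch, were called in neither knockdown comparison. TGFB2 had 6.02, 17.2, 6.84 and 6.56 CPM in the poGC-CT libraries, against 34.4, 17.4, 17.04 and 14.1 CPM in the phGC-CT libraries. One library in each control group stood far above the rest, so that poGC-CT replicate 2 overlapped phGC-CT. TGFB2 was lower in poGC-CT (log2 fold change -1.18, SE 0.41, adjusted p = 0.0312), but not without poGC-CT replicate 1, 3 or 4 or phGC-CT replicate 1 (adjusted p between 0.0790 and 0.0834), nor in limma's test of FPKM (adjusted p = 0.237). TGFB3 had 35.5, 38.7, 34.6 and 34.95 CPM in the poGC-CT libraries, against 56.7, 55.4, 64.8 and 52.9 CPM in the phGC-CT libraries. These groups did not overlap, and TGFB3 was lower in poGC-CT (log2 fold change -0.68, SE 0.077, adjusted p = 7.07e-05). After knockdown TGFB3 differed by -0.045 in poGC (SE 0.054) and by -0.035 in phGC (SE 0.081).

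Among the receptors, the type II BMP receptor BMPR2 and the type I receptor ACVR1 moved in opposite directions, in the same way in both cell types. BMPR2 had 418, 379, 351 and 377 CPM in the poGC-KD libraries, against 279, 227, 286 and 293 CPM in the poGC-CT libraries. It had 227, 192, 187 and 172 CPM in the phGC-KD libraries, against 138, 106, 94.3 and 111 CPM in the phGC-CT libraries. No KD library overlapped the CT libraries of its cell type. BMPR2 rose in poGC-KD (log2 fold change 0.50, SE 0.091, adjusted p = 0.00352) and in phGC-KD (0.79, SE 0.13, adjusted p = 0.00653). ACVR1 had 36.3, 38.4, 39.7 and 41.1 CPM in the poGC-KD libraries, against 57.7, 55.1, 53.9 and 58.2 CPM in the poGC-CT libraries. It had 62.8, 73.7, 65.3 and 72.5 CPM in the phGC-KD libraries, against 110.0, 101, 102 and 94.6 CPM in the phGC-CT libraries. Again no KD library overlapped its controls. ACVR1 fell in poGC-KD (log2 fold change -0.52, SE 0.052, adjusted p = 0.000159) and in phGC-KD (-0.58, SE 0.075, adjusted p = 0.00276). These 4 calls held under each alternative fit and when any single library was left out, but by the criteria of the study, which ask for a fold change above 1.5, only BMPR2 in phGC-KD was a DEG. Neither interaction passed (adjusted p = 0.300 for BMPR2 and 0.859 for ACVR1). The pair also differed between the controls, BMPR2 being higher in poGC-CT than in phGC-CT (log2 fold change 1.27, SE 0.13, adjusted p = 3.49e-05) and ACVR1 lower (-0.86, SE 0.061, adjusted p = 4.07e-06).

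The other receptors were called in neither knockdown comparison. BMPR1B, a type I BMP receptor, differed between the controls. BMPR1B had 44.04, 41.7, 40.8 and 43.96 CPM in the poGC-CT libraries, against 27.5, 23.3, 19.4 and 26.3 CPM in the phGC-CT libraries. They did not overlap (log2 fold change 0.82, SE 0.11, adjusted p = 0.000195). After knockdown BMPR1B was 39.02 to 43.3 CPM in poGC-KD (-0.048, adjusted p = 0.543) and 26.9 to 35.5 CPM in phGC-KD (0.34, adjusted p = 0.138). BMPR1A, the other BMP type I receptor of the set, stayed between 14.2 and 28.8 CPM and was called in none of the pairwise comparisons. TGFBR3, the co-receptor betaglycan, had 23.4 to 33.6 CPM in phGC-KD, against 13.97 to 20.8 CPM in phGC-CT, without overlap but short of the adjusted threshold (0.59, SE 0.17, adjusted p = 0.0571). TGFBR2, the type II TGF-beta receptor, had 1.46 to 3.0 CPM in phGC-KD, against 3.10 to 5.57 CPM in phGC-CT, likewise without overlap and not called (-0.80, SE 0.27, adjusted p = 0.0954). TGFBR1, the type I TGF-beta receptor, was at 6.83 CPM in poGC-KD replicate 2 while the other poGC-KD libraries had 30.7 to 36.2 CPM, and at 5.38 CPM in phGC-CT replicate 1 while the other phGC-CT libraries had 38.9 to 45.8 CPM. Its fold changes had standard errors of 0.41 in poGC and 0.50 in phGC on the log2 scale.

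Among the SMADs, SMAD2, which carries TGF-beta and activin signals, had the largest rise in poGC-KD. SMAD2 had 584, 595, 558 and 608 CPM in the poGC-KD libraries, against 334, 327, 374 and 350.3 CPM in the poGC-CT libraries. It had 67.7, 37.05, 42.8 and 34.2 CPM in the phGC-KD libraries, against 30.3, 42.7, 31.8 and 42.2 CPM in the phGC-CT libraries. The poGC groups lay far apart and did not overlap, and the phGC groups overlapped. SMAD2 rose in poGC-KD (log2 fold change 0.77, SE 0.052, adjusted p = 1.87e-05), under each alternative fit and with any single library left out, and was not called in phGC-KD (0.30, SE 0.22, adjusted p = 0.435). The interaction did not pass (0.45, adjusted p = 0.306). Between the controls, SMAD2 was 9.42 times as high in poGC-CT as in phGC-CT (log2 fold change 3.24, SE 0.13, adjusted p = 1.41e-07). SMAD3, its partner in the same branch, had 149.8, 144, 181 and 170.1 CPM in the poGC-CT libraries, against 69.04, 74.5, 70.6 and 75.9 CPM in the phGC-CT libraries. These did not overlap (log2 fold change 1.15, SE 0.082, adjusted p = 4.03e-06). With 199, 174, 189 and 195 CPM, the poGC-KD libraries overlapped poGC-CT in SMAD3 and the value lay just short of the threshold (0.25, SE 0.081, adjusted p = 0.0503), and in phGC-KD it was 0.13 (SE 0.10, adjusted p = 0.437).

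SMAD1 and SMAD5 carry BMP signals. SMAD1 had 47.8, 54.95, 57.7 and 58.4 CPM in the poGC-KD libraries, against 76.1, 67.7, 72.1 and 67.2 CPM in the poGC-CT libraries. It had 71.9, 74.4, 74.96 and 79.4 CPM in the phGC-KD libraries, against 81.8, 74.1, 67.9 and 73.2 CPM in the phGC-CT libraries. The poGC groups did not overlap, whereas the phGC groups did. SMAD1 fell in poGC-KD (log2 fold change -0.36, SE 0.073, adjusted p = 0.00696) and was not called in phGC-KD (0.0098, SE 0.069, adjusted p = 0.943) or between the controls (-0.069, SE 0.073, adjusted p = 0.434). Its interaction passed (-0.39, SE 0.10, adjusted p = 0.0248), but not without poGC-CT replicate 1 or phGC-CT replicate 2, 3 or 4 (adjusted p between 0.0515 and 0.0602), nor in limma's test of FPKM (adjusted p = 0.248).

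SMAD5 had 923, 762, 1135 and 1326 CPM in the poGC-KD libraries, against 859, 763, 834 and 870.3 CPM in the poGC-CT libraries. It had 297, 239.6, 271 and 235 CPM in the phGC-KD libraries, against 204, 129.7, 144 and 177 CPM in the phGC-CT libraries. In poGC the lowest KD library was level with the lowest CT library, and in phGC the groups did not overlap. SMAD5 rose in phGC-KD (log2 fold change 0.66, SE 0.14, adjusted p = 0.0240), a call lost without phGC-KD replicate 1 or 3 or phGC-CT replicate 2, 3 or 4 (adjusted p between 0.0520 and 0.0663) and in limma's test of FPKM (adjusted p = 0.116). In poGC-KD it was not called (0.33, SE 0.15, adjusted p = 0.142), and the interaction did not pass (-0.35, adjusted p = 0.403). Between the controls, SMAD5 was 5.07 times as high in poGC-CT as in phGC-CT (log2 fold change 2.34, SE 0.14, adjusted p = 1.59e-06). SMAD4, the shared partner of both branches, ranged from 5.20 to 18.3 CPM with wide scatter, and SMAD9, the third BMP SMAD, from 1.52 to 9.12 CPM. Neither was called in any pairwise comparison (SMAD4 -0.90 in phGC-KD, adjusted p = 0.110, and SMAD9 -0.52 in poGC-KD, adjusted p = 0.0604).

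**Figure D4:**
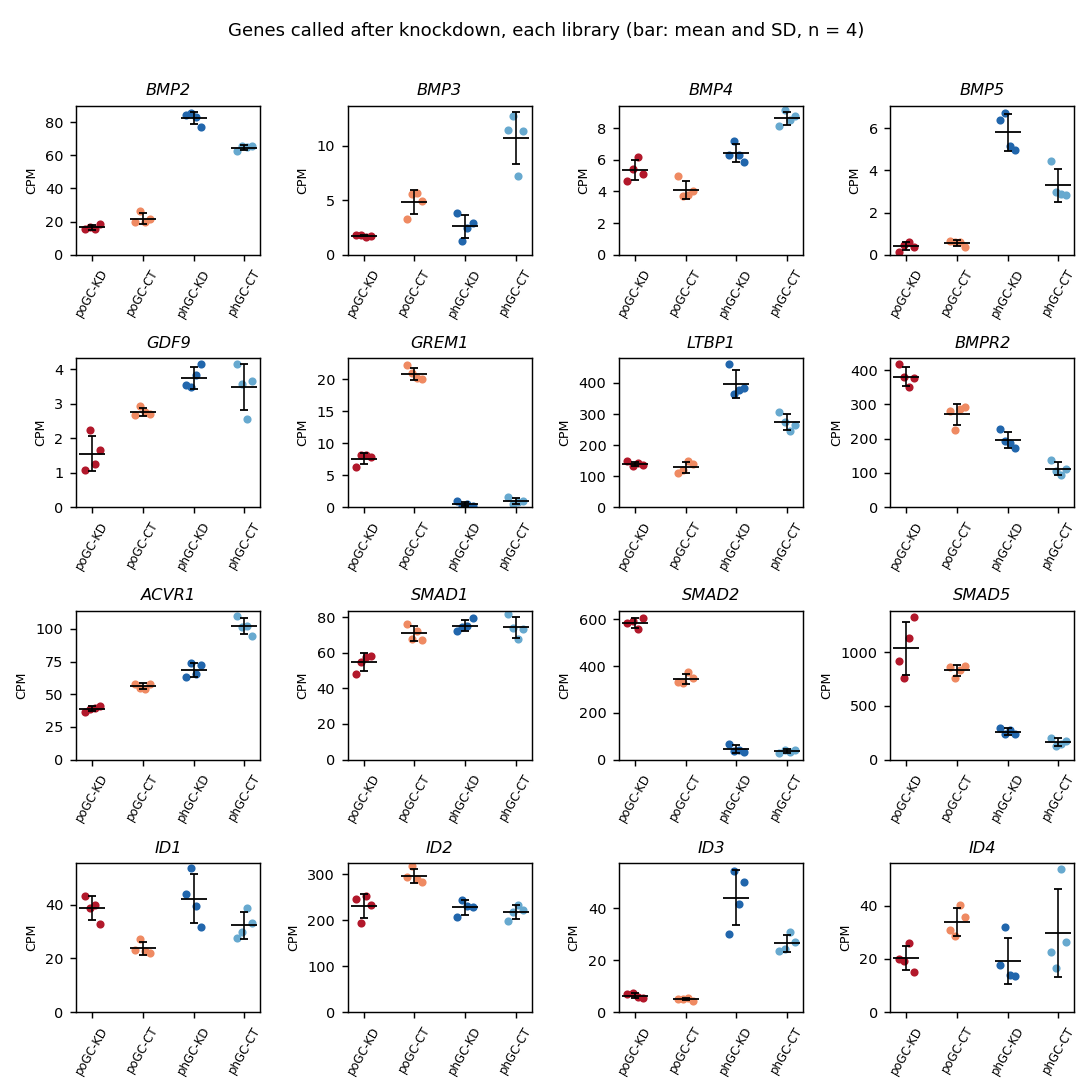
TMM-scaled CPM (y axis, from 0, with its own range in each panel) of 16 of the genes called in a knockdown comparison, with 1 point per library and bars for the mean and SD of 4 libraries. Each panel has poGC on the left and phGC on the right, with KD left of CT. BMP3 and ACVR1 are lower and BMPR2 is higher in KD than in CT of both cell types, SMAD2 and GREM1 separate KD from CT in poGC, and the ID3 and ID4 points of phGC overlap.

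Ratios of FPKM within a library compare the mRNA levels of pairs of genes on that scale only. They were chosen after the values above were seen and are given without a test. Within a gene, FPKM did not always follow CPM across libraries. SMAD3 in poGC-CT had 34.9, 20.3, 32.6 and 25.0 FPKM, against 149.8, 144, 181 and 170 CPM. Between genes the 2 scales also differ because FPKM divides by transcript length. In phGC-CT, BMP2 and NOG averaged 39.5 and 39.2 FPKM, against 64.8 and 30.8 CPM. SMAD2 stood at 4.06 ± 0.0626 times SMAD3 in poGC-KD and 3.12 ± 0.684 times in poGC-CT, but at 0.736 ± 0.160 times in phGC-KD and 0.653 ± 0.134 times in phGC-CT (SD, n = 4). SMAD5 stood at 9.77 ± 2.19 times SMAD1 in poGC-KD and 6.002 ± 0.579 times in poGC-CT, and at 1.79 ± 0.421 times in phGC-KD and 1.12 ± 0.271 times in phGC-CT. The leading SMAD of the TGF-beta branch by FPKM was SMAD2 in poGC and SMAD3 in phGC. BMPR2 was 2.65 ± 0.324 times ACVR1 in poGC-KD and 1.32 ± 0.133 times in poGC-CT. In phGC it was 0.777 ± 0.139 times in phGC-KD and 0.301 ± 0.0394 times in phGC-CT, without overlap of KD and CT in either cell type. BMP2 was 0.192 ± 0.0353 times its antagonist NOG in poGC-KD and 0.211 ± 0.0222 times in poGC-CT, against 1.41 ± 0.154 times in phGC-KD and 1.02 ± 0.119 times in phGC-CT.

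**Figure D5:**
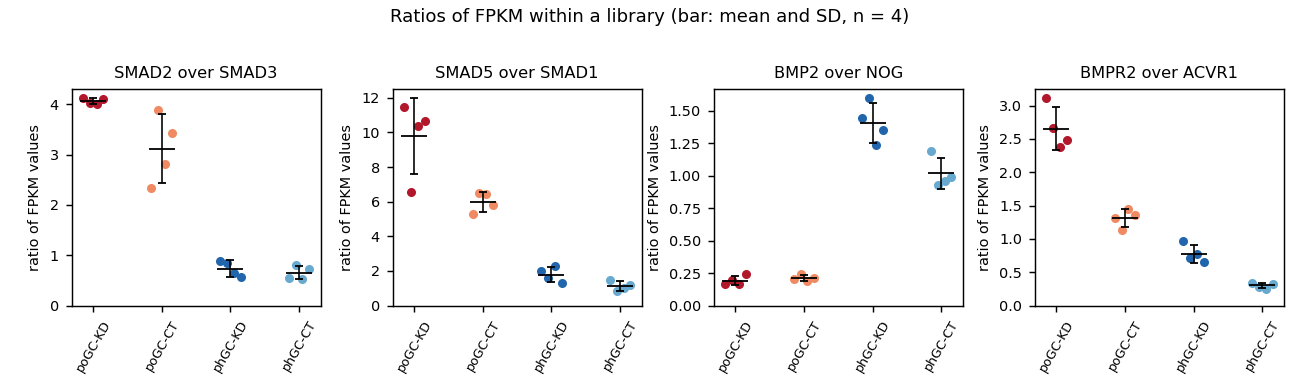
Ratios of FPKM values within each library (y axis, from 0) for SMAD2 over SMAD3, SMAD5 over SMAD1, BMP2 over NOG and BMPR2 over ACVR1, with 1 point per library and bars for the mean and SD of 4 libraries. Both SMAD ratios are above those of phGC in all poGC libraries, BMP2 over NOG is at least 0.930 in each phGC library and at most 0.241 in each poGC library, and BMPR2 over ACVR1 is higher in KD than in CT of both cell types.

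Of the intracellular inhibitors and co-repressors, SKIL (SnoN) and TGIF1, nuclear co-repressors of SMAD-driven transcription, fell in poGC-KD. SKIL had 36.3, 40.2, 36.6 and 35.1 CPM in the poGC-KD libraries, against 47.7, 42.2, 44.0 and 44.7 CPM in the poGC-CT libraries. The groups did not overlap (log2 fold change -0.25, SE 0.061, adjusted p = 0.0148), but a fit of all 16 libraries did not call it (adjusted p = 0.0698). TGIF1 had 20.2, 20.8, 17.2 and 17.4 CPM in the poGC-KD libraries, against 25.4, 25.3, 25.3 and 26.6 CPM in the poGC-CT libraries. Here too the groups did not overlap, and TGIF1 was lower (log2 fold change -0.43, SE 0.077, adjusted p = 0.00352). None of the 6 genes of this role was called in the comparison of phGC-KD with phGC-CT, with SKIL at 0.14 (adjusted p = 0.535) and TGIF1 at -0.11 (adjusted p = 0.411). Between the controls, SKIL had 47.7, 42.2, 44.0 and 44.7 CPM in the poGC-CT libraries, against 26.4, 22.1, 18.03 and 20.6 CPM in the phGC-CT libraries, and was higher in poGC-CT without overlap (log2 fold change 1.03, SE 0.11, adjusted p = 6.26e-05). SMURF1 had 339.9, 308, 322 and 323 CPM in the poGC-CT libraries, against 107, 86.8, 75.3 and 83.9 CPM in the phGC-CT libraries. SMURF1, a ubiquitin ligase that marks SMAD1 and SMAD5 for degradation, was higher in poGC-CT without overlap (log2 fold change 1.87, SE 0.10, adjusted p = 8.97e-07), whereas its relative SMURF2 was lower (-0.43, SE 0.11, adjusted p = 0.00756). The inhibitory SMADs, SMAD6 and SMAD7, were called in none of the pairwise comparisons, at 11.3 to 20.9 CPM for SMAD6 and 3.84 to 7.90 CPM for SMAD7 over the 16 libraries.

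GREM1, a secreted antagonist that binds BMP2 and BMP4, showed the most marked pattern of the modulators. GREM1 had 6.32, 8.10, 8.08 and 7.89 CPM in the poGC-KD libraries, against 22.1, 20.9, 20.3 and 20.1 CPM in the poGC-CT libraries. It had 0.891, 0.199, 0.455 and 0.238 CPM in the phGC-KD libraries, against 1.60, 0.487, 0.799 and 0.982 CPM in the phGC-CT libraries. The poGC groups did not overlap, and the phGC libraries were low throughout and overlapped. GREM1 fell in poGC-KD (log2 fold change -1.44, SE 0.092, adjusted p = 1.46e-05), under each alternative fit and with any single library left out. In phGC-KD it was not called (-1.09, SE 0.53, adjusted p = 0.232), and the interaction did not pass (-0.40, adjusted p = 0.729). Between the controls it was 21.5 times as high in poGC-CT as in phGC-CT (log2 fold change 4.43, SE 0.30, adjusted p = 3.09e-06), the largest difference of any member in that comparison.

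LTBP1, which holds latent TGF-beta in the extracellular matrix, had the opposite stage pattern. LTBP1 had 462, 364, 377 and 383 CPM in the phGC-KD libraries, against 307, 275, 246 and 266 CPM in the phGC-CT libraries. LTBP1 had 147, 134, 141 and 136 CPM in the poGC-KD libraries, against 109.5, 119, 147 and 140.4 CPM in the poGC-CT libraries. In phGC the groups did not overlap and LTBP1 rose (log2 fold change 0.53, SE 0.095, adjusted p = 0.0105), and in poGC they overlapped (0.13, SE 0.093, adjusted p = 0.349). The interaction did not pass (-0.42, adjusted p = 0.0727), and LTBP1 was lower in poGC-CT than in phGC-CT (-1.08, SE 0.11, adjusted p = 3.62e-05). The antagonists NOG and CHRD and the pseudoreceptor BAMBI, which lacks a kinase domain and dampens signaling, were called in neither knockdown comparison but differed between the controls. NOG had 45.2, 53.2, 51.2 and 49.97 CPM in the poGC-CT libraries, against 25.3, 34.02, 31.5 and 32.2 CPM in the phGC-CT libraries. NOG was higher in poGC-CT (log2 fold change 0.70, SE 0.10, adjusted p = 0.000266). CHRD had 1.10, 1.11, 0.996 and 1.37 CPM in the poGC-CT libraries, against 2.75, 3.62, 3.42 and 2.98 CPM in the phGC-CT libraries. CHRD was lower in poGC-CT (-1.48, SE 0.18, adjusted p = 9.97e-05). BAMBI had 67.5, 72.1, 70.5 and 71.04 CPM in the poGC-CT libraries, against 23.4, 26.2, 25.2 and 22.4 CPM in the phGC-CT libraries. BAMBI was higher in poGC-CT (1.53, SE 0.066, adjusted p = 2.17e-07). In these 3 genes the control groups did not overlap. After knockdown their log2 fold changes lay between -0.19 and 0.13 in poGC and between -0.09 and 0.087 in phGC.

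The ID genes encode dominant negative helix-loop-helix proteins, and ID1, ID2 and ID3 are textbook targets of BMP-activated SMADs. In poGC-KD against poGC-CT the log2 fold changes were 0.73 for ID1, 0.38 for ID3, -0.34 for ID2 and -0.73 for ID4. All but ID3 were called there, beside 28.8% of all genes. In phGC-KD against phGC-CT they were 0.38 for ID1, 0.72 for ID3, 0.056 for ID2 and -0.64 for ID4. Only ID3 was called there, beside 9.97% of all genes. ID1 had 43.5, 38.9, 39.98 and 32.8 CPM in the poGC-KD libraries, against 23.1, 27.1, 22.6 and 22.1 CPM in the poGC-CT libraries. It had 43.9, 53.9, 39.5 and 31.9 CPM in the phGC-KD libraries, against 27.5, 29.9, 38.8 and 33.1 CPM in the phGC-CT libraries. ID1 did not overlap between the poGC groups and did between the phGC groups. It rose in poGC-KD (log2 fold change 0.73, SE 0.10, adjusted p = 0.000823) and was not called in phGC-KD (0.38, SE 0.17, adjusted p = 0.191), and the interaction did not pass (0.32, adjusted p = 0.404). Between the controls it was lower in poGC-CT (log2 fold change -0.45, SE 0.11, adjusted p = 0.00806).

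ID2 had 246, 193, 252 and 234 CPM in the poGC-KD libraries, against 294, 318, 289.8 and 283 CPM in the poGC-CT libraries. It had 206, 244, 231 and 229.7 CPM in the phGC-KD libraries, against 198, 218, 233 and 222 CPM in the phGC-CT libraries. For ID2 the poGC groups did not overlap and the phGC groups did. ID2 fell in poGC-KD (log2 fold change -0.34, SE 0.083, adjusted p = 0.0150), against 0.056 in phGC-KD (SE 0.073, adjusted p = 0.666). The interaction passed (-0.42, SE 0.11, adjusted p = 0.0303), but not without poGC-CT replicate 2, phGC-KD replicate 2 or 3, or phGC-CT replicate 2 (adjusted p between 0.0541 and 0.0611). ID2 was higher in poGC-CT than in phGC-CT (log2 fold change 0.44, SE 0.06, adjusted p = 0.000212).

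ID3 had 7.05, 7.17, 5.73 and 5.28 CPM in the poGC-KD libraries, against 4.92, 4.95, 5.25 and 4.43 CPM in the poGC-CT libraries. It had 30.3, 54.4, 41.6 and 50.3 CPM in the phGC-KD libraries, against 23.7, 24.4, 31.01 and 27.1 CPM in the phGC-CT libraries. The phGC groups overlapped, since phGC-KD replicate 1 lay below phGC-CT replicate 3, and the poGC groups did not. ID3 rose in phGC-KD (log2 fold change 0.72, SE 0.18, adjusted p = 0.0362), a call lost without phGC-KD replicate 2, 3 or 4 or phGC-CT replicate 1, 2 or 4 (adjusted p between 0.0603 and 0.105). In poGC-KD it missed the threshold (0.38, SE 0.13, adjusted p = 0.0542). Between the controls ID3 was lower in poGC-CT (log2 fold change -2.44, SE 0.11, adjusted p = 2.59e-07). ID4 had 20.1, 19.3, 26.1 and 15.2 CPM in the poGC-KD libraries, against 30.7, 28.7, 40.3 and 35.6 CPM in the poGC-CT libraries. The poGC groups did not overlap in ID4, which fell (log2 fold change -0.73, SE 0.17, adjusted p = 0.0125), although not in a fit of all 16 libraries (adjusted p = 0.131). In phGC, ID4 had 17.5, 32.1, 13.9 and 13.5 CPM in the phGC-KD libraries, against 22.4, 16.7, 53.7 and 26.2 CPM in the phGC-CT libraries, and the groups overlapped (-0.64, SE 0.40, adjusted p = 0.351).

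The rest of the pathway was read from 80 further genes with a row in the tables. In the comparison of poGC-KD with poGC-CT 67 of them were tested, 7 were higher and 15 lower, beside the 28.8% of all genes called. Of 18 extracellular modulators analysed, 8 were lower, the largest log2 fold changes being those of DCN (-1.39, adjusted p = 0.000442), TLL1 (-0.87, adjusted p = 0.000577), THBS1 (-0.68, adjusted p = 1.46e-05) and NBL1 (-0.56, adjusted p = 0.0217). DCN (decorin), also a marker of theca and stroma, averaged 2.83 CPM in poGC-KD and 7.51 CPM in poGC-CT. DCN binds TGF-beta in the matrix, TLL1 is a protease that cleaves chordin, THBS1 activates latent TGF-beta, and NBL1 is a BMP antagonist. Of the co-receptors and receptors, NEO1 was higher (0.67, adjusted p = 0.000883) and ACVR2A, a type II receptor, was lower (-0.15, adjusted p = 0.0374). Among 23 intracellular regulators, 3 were higher and 2 lower, led by FKBP1A (-0.56, adjusted p = 0.000301), XIAP (0.40, adjusted p = 0.00192), SKI (0.40, adjusted p = 0.0148) and TRIM33 (-0.30, adjusted p = 0.0453). MSX1, a BMP response gene, was lower (-1.46, adjusted p = 0.00118) and TBX3 higher (0.31, adjusted p = 0.00116). Of 9 TGF-beta response genes, 2 were higher and 3 lower, led by TGFBI (0.79, adjusted p = 2.98e-05), COL1A1 (0.66, adjusted p = 0.0294), CDKN2B (-0.64, adjusted p = 0.00373) and SNAI2 (-0.57, adjusted p = 0.000120).

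In the comparison of phGC-KD with phGC-CT 67 further genes were tested, 5 were higher and 8 lower, beside the 9.97% of all genes called. Among 7 receptors and co-receptors 3 were higher and none lower, namely ENG (0.89, adjusted p = 0.00458), RGMB (0.61, adjusted p = 0.0105) and NEO1 (0.50, adjusted p = 0.0156). ENG (endoglin) is a TGF-beta and BMP co-receptor, and RGMB and NEO1 act together with BMP receptors. Of 17 extracellular modulators 1 was higher and 4 lower, led by LTBP2 (-1.15, adjusted p = 0.000497), NBL1 (-0.74, adjusted p = 0.00248), FBN2 (0.64, adjusted p = 0.0149) and THBS1 (-0.62, adjusted p = 0.0173). LTBP2 was lower in poGC-KD too (-0.22, adjusted p = 0.0251). FKBP1A, which binds type I receptors, was lower (-0.59, adjusted p = 0.00363) and PPM1A, a phosphatase of SMADs, higher (0.28, adjusted p = 0.0402). The BMP response gene MSX1 was lower, as in poGC (-1.42, adjusted p = 0.000487), and so was HEY1 (-0.57, adjusted p = 0.0249). CTGF was the single TGF-beta response gene called (-0.32, adjusted p = 0.0249), and it was lower in poGC-KD too (-0.42, adjusted p = 0.000119). The interaction passed for 10 of 69 further genes, 3 above 0 and 7 below, and for 9.25% of all genes. The modulators were led by LRRC32 (-1.54, adjusted p = 0.0221), TLL1 (-1.26, adjusted p = 0.00262), TLL2 (-0.97, adjusted p = 0.0410) and LTBP2 (0.90, adjusted p = 8.94e-05). ENG (-0.91, adjusted p = 0.00821), RGMB (-0.72, adjusted p = 0.00168), TRIM33 (-0.56, adjusted p = 0.0473), PPM1A (-0.41, adjusted p = 0.0232) and TGFBI (0.73, adjusted p = 0.00536) passed as well.

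Between the controls 68 further genes were tested, 29 were higher and 17 lower in poGC-CT, beside the 64.0% of all genes called. The largest differences of the modulators were LRRC32 (6.24, adjusted p = 1.98e-08), DCN (4.64, adjusted p = 7.48e-06), BMPER (-3.11, adjusted p = 1.17e-05) and LTBP2 (3.09, adjusted p = 5.17e-09), and LRRC32 presents latent TGF-beta at the cell surface. LRRC32 did not pass the filter on low counts in the comparison of phGC-KD with phGC-CT. DCN, also a marker of theca and stroma, averaged 7.51 CPM in poGC-CT and 0.298 CPM in phGC-CT. ENG, NEO1 and RGMB differed by -3.36, -1.95 and 1.64 (adjusted p = 2.88e-07, 5.75e-07 and 1.48e-06). Of the further ligands, BMP10 was higher (1.99, adjusted p = 0.00447) and GDF11 lower (-2.31, adjusted p = 0.000446). BMP10 likewise did not pass the filter in the comparison of phGC-KD with phGC-CT. The intracellular regulators had 12 of 23 higher and 5 lower, led by CREBBP (1.78, adjusted p = 2.93e-06), TGIF2 (-1.74, adjusted p = 0.0187), EP300 (1.32, adjusted p = 1.39e-05) and FKBP1A (-1.28, adjusted p = 2.77e-06). Of the BMP response genes, RUNX2 was higher (2.69, adjusted p = 2.41e-07) and MSX1 lower (-2.61, adjusted p = 2.39e-07). Of the TGF-beta response genes, COL1A1, also a marker of theca and stroma, was lower (-3.28, adjusted p = 5.79e-08), and TGFBI was higher (1.45, adjusted p = 7.22e-07).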

How the data were processed

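Granulosa cell RNA of 4 groups with 4 libraries each was sequenced. The study's text names TopHat2 and Gallus_gallus-5.0, while the submitters' processing notes list HISAT2 (2.1.0), StringTie (1.3.4d) and DESeq2 (1.26.0), and the counting program, its annotation and its strand setting are not given in the sources used here. Without a stated strand setting, reads of overlapping or antisense genes cannot be told apart. The authors deposited, for each library, raw counts of reads per gene symbol, without normalization. The authors also deposited FPKM values, scaled by transcript length and library size. Totals of 29979116 to 56121795 counts set the counting error, which is part of the spread between the 4 libraries of a group, and the floor of 3 counts covers counting error only.

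Counts were filtered by filterByExpr, normalized by TMM and tested with the quasi-likelihood test of edgeR (4.0.16, under R 4.3.3), with KD against CT within each cell type, poGC-CT against phGC-CT, and an interaction over 16 libraries. Each fit covered all genes, with Benjamini-Hochberg adjustment over all genes tested and calls at an adjusted p under 0.05. SE is the absolute log2 fold change divided by the square root of F. FPKM served to compare levels between genes. As alternatives, upper-quartile normalization, DESeq2 (1.42.0), all genes with at least 1 count, a minimum of 10 counts per library, a block for the replicate number, 1 fit of all 16 libraries, the criteria of the study (fold change above 1.5 and unadjusted p under 0.05), limma (3.58.1) on log2(FPKM + 1), whose fold changes understate those of low genes, and leaving out each library were run. The code of the fit was tried on simulated counts with the same dispersion for every gene and no library set apart. That trial does not show how the test behaves on these libraries.

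The members and lists were chosen with earlier results of these data known. Members with an adjusted p under 0.05 and a fold change above 1.5 in a pairwise comparison, BMP15, GDF9 and members called in the interaction are given for each library; TGIF1, which fell outside this rule, was added after its values were seen. Of the further pathway genes, at most the 4 called with the largest change in a list and comparison are named. One gene of these lists is not reported here and was left out of their counts. Of the 42 symbols, 40 matched a RefSeq gene symbol of GRCg7b directly, and coordinates are not given because the builds differ.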

Additional observations from a re-analysis of the deposited data

Results flagged for a closer look

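In a group of 4 libraries, 1 library stood apart when its gap to the nearest other was too large a part of the group's range by Dixon's test. Of 152 groups examined over 38 members, 8 held such a library, and chance gives about 1 in 20, or 7.6. BMP5 was at 4.45 CPM in phGC-CT replicate 1, with the others at 2.85 to 2.98 CPM. TGFB2 was at 17.2 CPM in poGC-CT replicate 2 (others 6.02 to 6.84 CPM) and at 34.4 CPM in phGC-CT replicate 1 (others 14.1 to 17.4 CPM). SMAD9 was at 9.12 CPM in phGC-KD replicate 2 (others 1.85 to 2.95 CPM). On the FPKM scale this library did not stand apart in SMAD9, at 0.461 FPKM with the others at 0.302 to 0.496 FPKM. SMAD6 was at 14.9 CPM in poGC-KD replicate 3 (others 11.3 to 11.8 CPM), and SMAD7 at 7.005 CPM in poGC-KD replicate 1 (others 5.03 to 5.26 CPM). TGIF1 was at 26.6 CPM in poGC-CT replicate 4 (others 25.3 to 25.4 CPM). GREM1 was at 6.32 CPM in poGC-KD replicate 1, below the others at 7.89 to 8.10 CPM.

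The effect of knockdown differed between poGC and phGC by the interaction test for 4 of 38 members, near the 9.25% of all 14775 genes that passed. The differences, poGC effect minus phGC effect on the log2 scale, were -0.74 for BMP2, 0.80 for BMP4, -0.39 for SMAD1 and -0.42 for ID2. Those of SMAD1 and ID2 each lost the call in 4 of the 16 fits with 1 library left out.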

How the results depend on the processing

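Over the 50 pairwise or interaction results of members that were called, 778 alternatives were computed, of which 720 kept the direction and the call, 58 kept the direction and lost the call, and 0 turned the direction, and 37 results held under every one of these fits. The criteria of the study (fold change above 1.5 and unadjusted p under 0.05) were applied apart from these, and 16 of the 50 did not meet them, so that 27 of the 37 held under them as well. The number of members called in the comparison of poGC-KD with poGC-CT was 13. It was 6 under the criteria of the study and 19 with DESeq2, with 11 to 15 when 1 library was left out. In the comparison of phGC-KD with phGC-CT it was 9, and 12 with DESeq2, with 5 to 9 when 1 library was left out. Between the controls it was 24, with 22 to 26 over all alternatives. The interaction had 4 members, 11 with DESeq2, and 2 to 8 when 1 library was left out. Over all genes, the comparison of poGC-KD with poGC-CT had 4138 calls with edgeR and 4643 with DESeq2. That of phGC-KD with phGC-CT had 1379 and 2282, and the interaction 1367 and 1908. For the fits with 1 library left out, calls over all genes are not given, so those counts of members stand without a background. With limma on FPKM, 62.2% of the genes called in the interaction were above 0, against 48.4% with edgeR. Upper-quartile scaling moved the median log2 difference of all genes between the controls to -0.082. FOXL2 in phGC-KD, not called in the test used above, passed with DESeq2 (-0.43), in 1 fit of all 16 libraries (-0.42), and in 2 of the fits with 1 library left out, whose values ran from -0.54 to -0.33. In poGC-KD those values ran from -0.75 to -0.62. The correlations of libraries with the same replicate number were -0.038 to 0.014 in the comparison of poGC-KD with poGC-CT, -0.078 to 0.10 in the comparison of phGC-KD with phGC-CT and -0.00081 to 0.040 between the controls. The same number gave the highest correlation only for replicate 1 in phGC and for replicates 1 and 4 between the controls. These correlations do not settle whether libraries of the same number share a hen. With the replicate number as a block, SKIL in poGC (-0.25, adjusted p = 0.0606), ID2 in poGC (-0.35, 0.0514), BMP4 in phGC (-0.43, 0.0703), ID3 in phGC (0.70, 0.0520) and the interaction of SMAD1 (-0.39, 0.0523) were no longer called. The causes of these changes were not tested. Genes near or under 1 CPM, such as BMP6, BMP7, GDF5 and GREM1 in phGC, rest on few counts. BMP15, GDF6, NODAL and LEFTY2 did not pass the filter on low counts, so their differences were not tested.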
